A study of Homo sapiens with 12 samples.

Results

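Polyamine genes, some of them known to be controlled partly at translation, were followed in ribosome footprints (RPF) and in total mRNA sequencing. RPF are stretches of message covered by a ribosome and so spared by nuclease. The genes were chosen by transcript identifier, 1 per gene, with no measured value in the rule, but with earlier results of these data known. The rule names 7 genes, of which 4 had a row in the count tables, among 18338 transcripts in all: AMD1 (ENST00000368885), SRM (ENST00000376957), SMS (ENST00000404933) and SAT1 (ENST00000379270). All 4 passed the filter on low counts in both assays. ODC1 (ENST00000234111), OAZ1 (ENST00000602676) and AZIN1 (ENST00000337198) were skipped under the rule and are not analysed here, so no value bears on the frameshift of OAZ1.

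The cells were wild-type HEK293T, a transformed line of human embryonic kidney origin, and every library carries the treatment label GSK-A1, a compound that blocks PI4KA, the lipid kinase that makes PI4P for the plasma membrane. RPF and mRNA were each sampled at 0, 60 and 360 min, with 2 replicates in each of the 6 groups. The 0 min libraries serve as the untreated reference only through the time in their titles. Nothing in the labels says that replicates came from separate cultures, so p-values measure the spread between these libraries, which may be technical. The time course allows transcript abundance and ribosome occupancy to be compared between the times after the inhibitor was given.

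Polyamines are small positively charged molecules that bind RNA and are needed for growth. Ornithine decarboxylase (ODC1) makes putrescine, AMD1 decarboxylates S-adenosylmethionine to supply aminopropyl groups, SRM adds one such group to make spermidine, and SMS adds another to make spermine. SAT1 works in the other direction: it acetylates spermidine and spermine so that they can be exported or oxidised. Cells keep the pool steady largely at translation, through a frameshift in antizyme mRNA (OAZ1), a small upstream reading frame in AMD1 mRNA at which ribosomes stall when polyamines are plentiful, and repression of SAT1 mRNA that polyamines relieve.

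The upstream frame of AMD1 is shown because AMD1 had the largest fitted shift in the RPF to mRNA ratio of the 4 genes. It was found in the RefSeq start windows of GRCh38.p14, at chr6:110874796-110874816 on the plus strand, with the start and stop codons in capitals.

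AMD1 upstream frame: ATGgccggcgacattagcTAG

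The frame is 21 bases long, with 6 sense codons before the stop, and starts 11 or 12 bases after the first transcribed base, depending on which of the neighbouring starts is used. An ATG followed in frame by TAA, TAG or TGA was sought on the transcribed strand only, within the first 50 transcribed bases; frames may overlap. Of 35116 start windows of all genes, 10.2% held such a complete frame and 40.2% held an ATG. AMD1 has 3 windows, of which the third, an upstream start, lacks the frame. The single windows of SRM, SMS and SAT1 held no ATG in those 50 bases, which says nothing of the rest of their leaders. The exact AMD1 frame occurred in the windows of 1 gene, AMD1 itself. Which start the counted AMD1 transcript uses is not given by the tables used here, nor is it stated whether RPF on a leader were counted.

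In RefSeq, AMD1 spans 110814617 to 110895713 of chromosome 6, SRM 11054589 to 11060018 of chromosome 1, SMS 21940709 to 21994837 and SAT1 23783173 to 23786210 of chromosome X (GRCh38.p14). The build behind the counts is not given in the sources used here. Libraries held 429026 to 1165740 counts, and the shallowest in mRNA were those of 360 min. Levels are counts-per-million values (CPM), for which each library total was scaled within its assay by the trimmed mean of M-values (TMM). AMD1 had 30 to 195 counts per library, SRM 28 to 275, SMS 23 to 207 and SAT1 2 to 45. Levels are not compared between genes, because transcript lengths are not in the tables used; ratios of RPF to mRNA within a transcript are.

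At 0 min the 4 transcripts split into a pair with few RPF for their mRNA and a pair with many. AMD1 had 124 and 91.9 RPF CPM (replicates 1 and 2) against 132 and 284 mRNA CPM. SAT1 had 7.38 and 12.2 RPF CPM against 24.4 and 20.4 mRNA CPM. In both, every RPF value lay below every mRNA value. SRM, the spermidine synthase, had 254 and 155 RPF CPM against 79.7 and 75.7 mRNA CPM. SMS, the spermine synthase, had 191 and 189 RPF CPM against 126 and 85.9 mRNA CPM. In these 2 transcripts every RPF value lay above every mRNA value.

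Each RPF library of a time can be divided by each mRNA library of that time, which gives 4 ratios. At 0 min these ran from 0.302 to 0.597 for SAT1, from 0.324 to 0.934 for AMD1, from 1.5 to 2.22 for SMS and from 1.95 to 3.35 for SRM. The ranges of SAT1 and AMD1 overlapped, and so did those of SMS and SRM, but the highest ratio of AMD1 lay below the lowest of SMS. The gap in the order therefore fell between AMD1 and SMS, and neighbours within each pair did not differ beyond their spread.

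**Figure D1:**
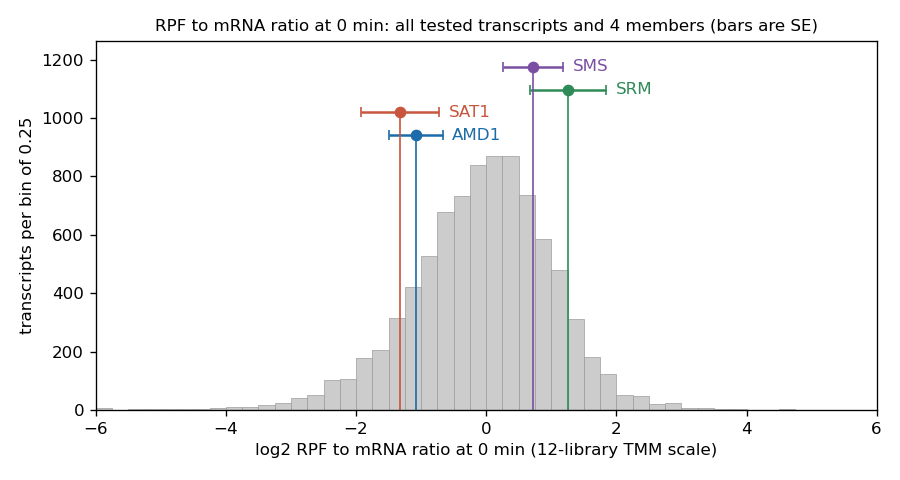
Grey bars count the 8632 tested transcripts by their log2 RPF to mRNA ratio at 0 min (bins of 0.25, with values beyond 6 in either direction placed in the end bins). Coloured points give the 4 polyamine transcripts at arbitrary heights with their SE: SAT1 (−1.32) and AMD1 (−1.09) sit in the lower part of the distribution, and SMS (0.72) and SRM (1.26) in the upper part.

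A model of all 12 libraries, with TMM factors computed over all of them, placed the log2 RPF to mRNA ratio at 0 min at −1.09 for AMD1 (SE 0.41) and −1.32 for SAT1 (SE 0.60). The ratio was 1.26 for SRM (SE 0.58) and 0.72 for SMS (SE 0.46). The median of the 8632 transcripts tested was 0.00, with quartiles at −0.71 and 0.63. SAT1 stood at percentile 11.5 of these transcripts, AMD1 at 16.0, SMS at 77.5 and SRM at 91.0. In edgeR's quasi-likelihood test none of the 4 passed a Benjamini-Hochberg adjusted p of 0.05 (0 of 4). The adjusted p was 0.0971 for AMD1, 0.158 for SAT1, 0.161 for SRM and 0.310 for SMS. Over all transcripts 5.09% were called higher in RPF and 5.17% lower. At an unadjusted p under 0.05 there were 3 of the 4 members, against 29.6% of all transcripts. DESeq2 called 0 of the 4 members and 1122 of the 8632 transcripts. It gave SAT1 no adjusted p, so SAT1 could not be called there. With TMM over all 12 libraries, unlike the CPM printed above, RPF and mRNA values did not overlap in 4 of 4 members. The same held for 60.7% of all transcripts, so separation of this kind was common. The value of AMD1 rested on mRNA 0 min replicate 2, the library with 284 CPM: without it the log2 ratio was −0.43. That of SMS was 0.47 without the same library.

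Over the time course none of the 36 changes tested for these transcripts (3 contrasts in RPF, in mRNA and in the RPF to mRNA ratio) passed an adjusted p of 0.05 in edgeR. Over all transcripts 0% were called in each of those 9 comparisons. DESeq2 also called none of the 4 in any of them, and at most 61 of 9693 transcripts (mRNA, 360 min against 60 min). In mRNA at 360 min against 0 min it gave SAT1, SRM and SMS no adjusted p, so only AMD1 could be called there. At 360 min against 60 min it gave none to SAT1 in mRNA or to AMD1 in the ratio. At an unadjusted edgeR p under 0.05 without a replicate term there were 4 of the 36, in AMD1, SRM and SMS. All 4 were changes at 360 min against 0 min: 1 of 4 members in RPF, 2 of 4 in mRNA and 1 of 4 in the ratio. Of all transcripts, 3.91%, 8.92% and 5.66% were under that p in the same 3 contrasts. Which changes were under it depended on the model. With a block for replicate number, the SRM change in mRNA was not (edgeR p 0.0694). Under it instead came SRM in RPF at 60 min against 0 min (edgeR p 0.0300) and SMS in RPF at 360 min against 60 min (edgeR p 0.0404). The share of all transcripts under that p with the block was not determined. The contrasts at 60 and 360 min share their 0 min libraries, and 360 min against 60 min shares libraries with both.

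Groups that did not overlap were counted as well. In RPF this held for 3 of 4 members at 60 min against 0 min (31.2% of all transcripts), 2 of 4 at 360 min against 0 min (27.4%) and 2 of 4 at 360 min against 60 min (35.4%). In mRNA it held for 2 of 4 (25.7%), 4 of 4 (38.9%) and 3 of 4 (40.2%), in the same order. The RPF to mRNA ratio counted as separate when all 4 ratios of one time lay above or below all 4 of the other. That was the case for 1 of 4 members in each contrast, and for 13%, 15% and 15.5% of all transcripts in those contrasts, taken in the same order. With 4 members, none of these counts sets them apart from the background. Where the groups overlapped, log2 changes ran from −0.40 to 0.79 in RPF, from −0.64 to −0.23 in mRNA and from −1.30 to 0.71 in the ratio. The median log2 change of the 4 at 360 min against 0 min was −0.01 in RPF, −0.66 in mRNA and 0.28 in the ratio, and the medians of all transcripts were 0.02, −0.03 and 0.01.

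**Figure D2:**
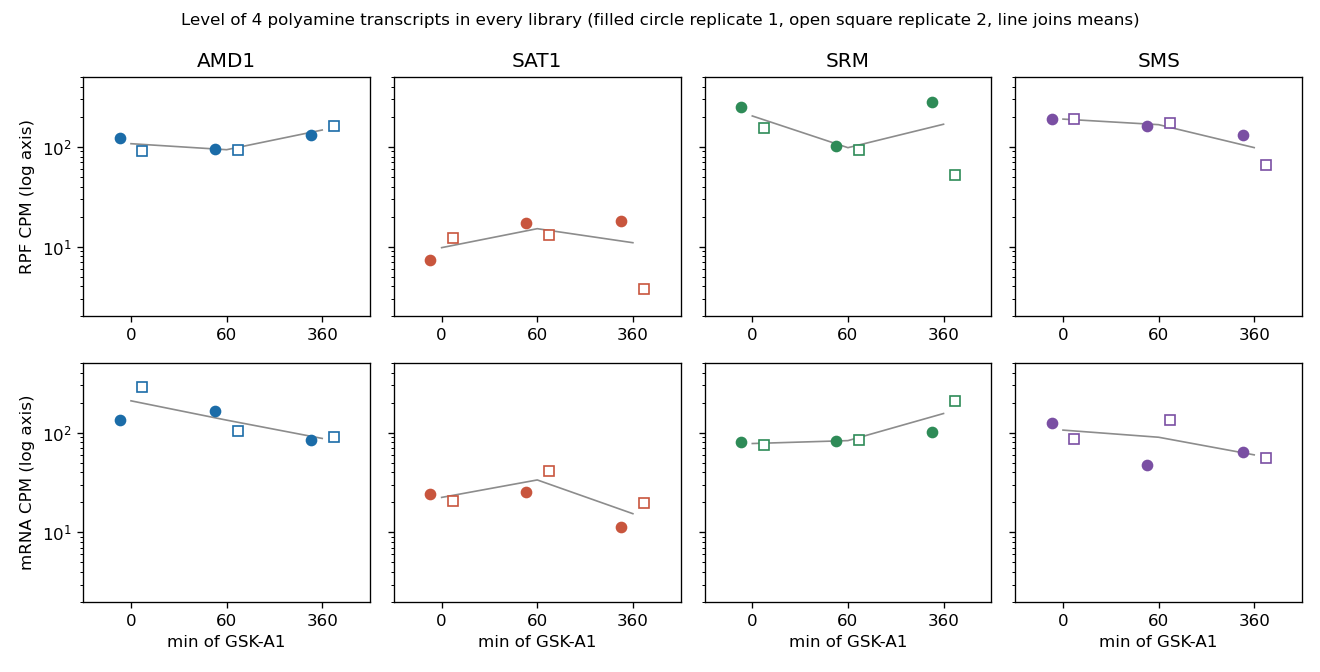
Level in CPM (log axis) of AMD1, SAT1, SRM and SMS at 0, 60 and 360 min, RPF above and mRNA below, with a filled circle for replicate 1, an open square for replicate 2 and a line through the means. AMD1 RPF at 360 min (133 and 163 CPM) lies above both earlier times while its mRNA (84.2 and 90.6 CPM) lies below them, and SRM RPF at 360 min is split between 285 and 52.3 CPM.

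AMD1, the enzyme that supplies aminopropyl groups, had its highest RPF to mRNA ratios at 360 min, though none of its changes passed adjustment. Its RPF levels were 124 and 91.9 CPM at 0 min, 95.2 and 92.3 CPM at 60 min, and 133 and 163 CPM at 360 min. Both 360 min libraries lay above the 4 earlier ones, by a small margin for replicate 1. Scaled by library totals alone that margin nearly closed, with unscaled CPM of 115.1 in 360 min replicate 1 and 114.9 in 0 min replicate 1. The mRNA levels were 132 and 284 CPM at 0 min, 164 and 103 CPM at 60 min, and 84.2 and 90.6 CPM at 360 min. Both 360 min libraries lay below the 4 earlier ones, on 30 and 51 counts.

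The ratio of RPF to mRNA for AMD1 ran from 0.324 to 0.934 at 0 min, from 0.563 to 0.927 at 60 min and from 1.47 to 1.93 at 360 min. All 4 ratios of 360 min exceeded all 8 earlier ones. On the fitted scale the log2 ratio was −1.09 (SE 0.41), −0.60 (SE 0.42) and 0.57 (SE 0.43) at the 3 times, and the percentile of AMD1 among all transcripts was 16.0, 27.3 and 69.1. The log2 change in the ratio at 360 min against 0 min was 1.66 (SE 0.60, 95% interval 0.38 to 2.93). Its unadjusted edgeR p was 0.0143 and its adjusted p 0.858, and 93.7% of all transcripts had a smaller change. From 60 to 360 min the ratio differed by 1.21 (SE 0.60, interval −0.07 to 2.49, edgeR adjusted p = 0.948).

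In the separate fits of each assay the 360 min change of AMD1 against 0 min was −1.25 in mRNA (SE 0.49, unadjusted edgeR p 0.0296, adjusted p 0.558). It was 0.45 in RPF (SE 0.37, edgeR adjusted p 0.9999), and 0.23 without RPF 0 min replicate 2. From 60 to 360 min the AMD1 values were 0.65 in RPF (SE 0.37, edgeR adjusted p 0.687) and −0.60 in mRNA (SE 0.48, edgeR adjusted p 0.710). The latter was −0.25 without mRNA 60 min replicate 1. From 60 to 360 min the changes in RPF and in mRNA were thus of like size. At 360 min against 0 min most of the change in ratio was on the mRNA side. There the 0 min replicates differed from each other by more than 0 min replicate 1 differed from 360 min. Without mRNA 0 min replicate 2 the change in mRNA was −0.60 and that in the ratio 1.03. Without mRNA 60 min replicate 1 the change in ratio from 60 min to 360 min was 0.78. The direction was the same in every fit that left out 1 library of the times compared. As the compared groups did not overlap, that outcome was nearly fixed in advance.

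**Figure D3:**
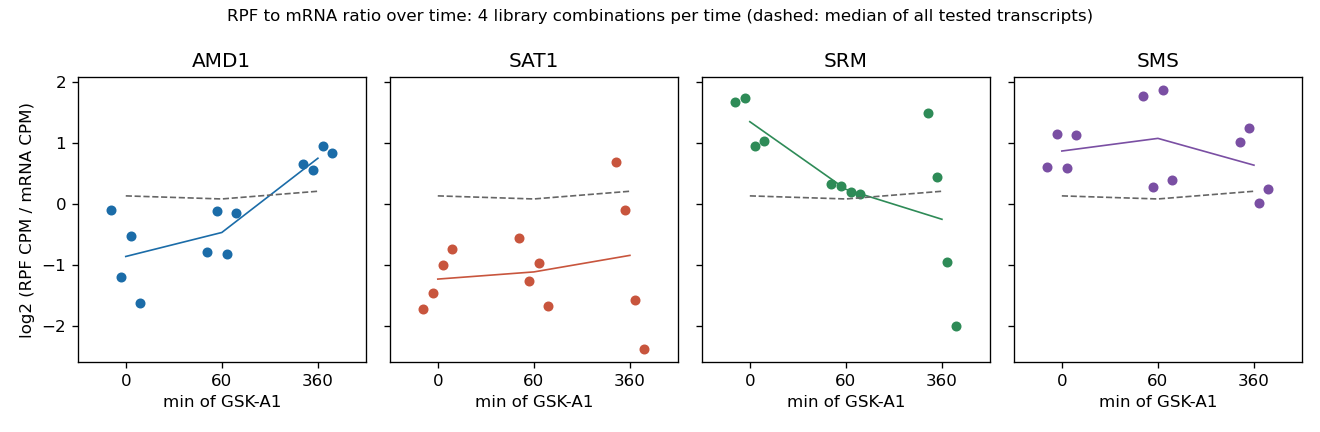
log2 of the RPF CPM divided by the mRNA CPM at 0, 60 and 360 min; the 4 points of a time combine 2 RPF with 2 mRNA libraries and are not independent, solid lines join their means and dashed lines give the median of the 8632 tested transcripts. AMD1 ratios of 360 min (1.47 to 1.93 on the linear scale) lie above all earlier ones, whereas those of SRM, SMS and SAT1 at 360 min span both sides of the median.

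SRM, the spermidine synthase, had its lowest mean RPF level at 60 min and replicates that disagreed at 360 min. RPF levels were 254 and 155 CPM at 0 min, 103 and 93.8 CPM at 60 min, and 285 and 52.3 CPM at 360 min. Both 60 min libraries were below both 0 min libraries, and the 360 min replicates were the highest and the lowest of the 6. The mRNA levels were 79.7 and 75.7 CPM at 0 min, 82.0 and 84.2 CPM at 60 min, and 101 and 210 CPM at 360 min. The first 4 mRNA values were within a narrow band, and both 360 min values were above it after TMM scaling. Scaled by library totals alone, 360 min replicate 1 had 83.9 CPM, between the 60 min values of 83.2 and 90.8.

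The RPF change of SRM at 60 min against 0 min was −1.06 on the log2 scale (SE 0.55, interval −2.22 to 0.11), with an edgeR adjusted p of 0.999. Its mRNA change at the same time was 0.10 (SE 0.43). The 4 RPF to mRNA ratios ran from 1.95 to 3.35 at 0 min and from 1.11 to 1.25 at 60 min, so they did not overlap, and the log2 change in ratio was −1.14 (SE 0.81, edgeR adjusted p 1.000). Only 3.22% of all transcripts had a lower value. The RPF change was −0.65, and the change in ratio −0.75, without RPF 0 min replicate 1. At 360 min the ratios spread from 0.25 to 2.82, a range that overlapped that of 0 min and enclosed that of 60 min.

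At 360 min the mRNA of SRM was 1.01 higher on the log2 scale than at 0 min (SE 0.44, interval 0.02 to 1.99, edgeR adjusted p 0.558) and 0.91 higher than at 60 min (SE 0.43, edgeR adjusted p 0.514). These values rested on replicate 2, with 118 counts: without it they were 0.41 and 0.29. SRM was the only 1 of the 4 with higher mRNA at 360 min than at 0 min; the other 3 had both 360 min libraries below both 0 min libraries.

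SMS, the spermine synthase, had lower values at 360 min than at 0 min in both assays. RPF levels were 191 and 189 CPM at 0 min, 161 and 173 CPM at 60 min, and 131 and 65.4 CPM at 360 min. The 3 times did not overlap, and the mean was lower at each later time. Scaled by library totals alone, 0 and 60 min did overlap, at 178 and 211 CPM against 152 and 183 CPM. The mRNA levels were 126 and 85.9 CPM at 0 min, 47.3 and 132 CPM at 60 min, and 64.5 and 55.1 CPM at 360 min. The 60 min mRNA replicates enclosed all other mRNA values of this transcript, on 41 and 143 counts.

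The log2 change of SMS at 360 min against 0 min was −0.94 in RPF (SE 0.40, interval −1.79 to −0.08), with an unadjusted edgeR p of 0.0331 and an adjusted p of 0.9999. It was −0.83 in mRNA (SE 0.53, edgeR adjusted p 0.640). In RPF the value was −0.54 without 360 min replicate 2 and −1.58 without 360 min replicate 1. In mRNA it was −0.48 without 0 min replicate 1. Against 60 min the RPF change at 360 min was −0.75 (SE 0.41, edgeR adjusted p 0.677), and −0.36 without 360 min replicate 2. From 0 to 60 min it was −0.19 (SE 0.39).

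The RPF to mRNA ratio of SMS stayed above 1 in all 12 combinations, from 1.5 to 2.22 at 0 min, 1.22 to 3.66 at 60 min and 1.01 to 2.39 at 360 min. Each assay was scaled within itself, so a ratio of 1 does not mean equal RPF and mRNA. At 360 min the median log2 ratio of all tested transcripts was 0.21, above the lowest SMS value of 0.02. The 3 ranges overlapped.

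SAT1, the acetyltransferase of polyamine breakdown, was the least covered of the 4. RPF levels were 7.38 and 12.2 CPM at 0 min, 17.3 and 13.0 CPM at 60 min, and 18.2 and 3.74 CPM at 360 min, on 2 to 16 counts. The 60 min libraries lay above the 0 min libraries by a margin of under 1 CPM, and the 360 min libraries were again the highest and the lowest. The 2 counts of 360 min replicate 2 correspond to 3.66 CPM of the unscaled library total (95% exact binomial interval 0.443 to 13.2), and the 13 counts of replicate 1 to 15.7 CPM (8.38 to 26.9). These intervals, which cover counting error only, overlap.

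The mRNA levels of SAT1 were 24.4 and 20.4 CPM at 0 min, 25.4 and 41.6 CPM at 60 min, and 11.2 and 19.5 CPM at 360 min. Both 60 min values were the highest and both 360 min values the lowest of the 6. The log2 change in mRNA at 360 min against 60 min was −1.08 (SE 0.53, interval −2.27 to 0.12), with an edgeR adjusted p of 0.522, and −0.68 without 60 min replicate 2. From 0 to 60 min the change was 0.58 (SE 0.48), and 0.21 without 60 min replicate 2. From 0 to 360 min it was −0.49 (SE 0.55), and −0.18 without 360 min replicate 1. The RPF change at 60 min against 0 min was 0.65 (SE 0.72, edgeR adjusted p 0.999), and 0.33 without 0 min replicate 1.

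The RPF to mRNA ratio of SAT1 was below 1 in all combinations at 0 and 60 min (0.302 to 0.597, and 0.312 to 0.681) and ran from 0.191 to 1.62 at 360 min. The 360 min range enclosed both earlier ones, so no difference between times was detectable at this depth.

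**Figure D4:**
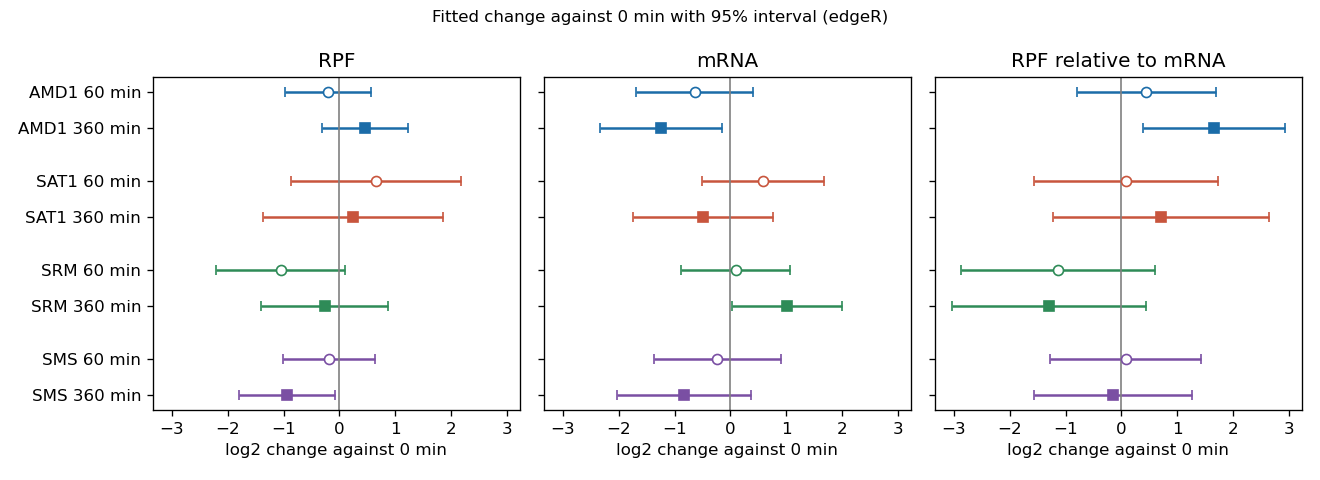
Fitted log2 change of the 4 transcripts at 60 min (open circles) and 360 min (filled squares) against 0 min in RPF, mRNA and the RPF to mRNA ratio, with unadjusted 95% intervals from edgeR. The interval excludes 0 for SMS in RPF, AMD1 and SRM in mRNA and AMD1 in the ratio, all at 360 min; none of these passed adjustment over all transcripts.

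In RPF at 360 min the replicates of SRM, SMS and SAT1 lay apart, those of SAT1 on 13 and 2 counts with exact intervals that overlap. The share of all transcripts with such a gap was not determined. Replicate 1 stood above replicate 2 in SRM (285 against 52.3 CPM), SMS (131 against 65.4 CPM) and SAT1 (18.2 against 3.74 CPM), and below it in AMD1 (133 against 163 CPM). In the mRNA of that time replicate 2 was the higher for AMD1, SRM and SAT1. With 2 replicates, neither RPF library of 360 min can be named the odd one. Their part in the 360 min results of SRM and SMS, beyond the values given with a library left out, was not tested.

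The fitted log2 ratios of the 4 transcripts lay closer together later in the time course. At 0 min they ran from −1.32 (SAT1) to 1.26 (SRM), at 60 min from −1.23 (SAT1) to 0.79 (SMS) and at 360 min from −0.64 (SAT1) to 0.57 (AMD1). The quartiles of all transcripts were −0.71 and 0.63 at 0 min and −0.68 and 0.75 at 360 min. All 4 members lay outside the quartiles at 0 min. The quartiles do not show how other transcripts that started as far from the median moved, and that was not determined. SRM moved from percentile 91.0 to 46.5 and AMD1 from 16.0 to 69.1, whereas SMS went from 77.5 to 68.6 and SAT1 from 11.5 to 26.3. At 360 min the SE was 0.69 for SAT1 and 0.58 for SRM, whose 4 ratios then spread from 0.25 to 2.82. The narrowing was seen after the values were known and was not tested.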

How the data were processed

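Counts per Ensembl transcript were deposited by the authors as whole numbers, 1 table per library, listing transcripts with at least 1 count; an absent row was read as 0. The submitters' processing notes name cutadapt 2.8, Bowtie 1.2.3 and STAR 2.7.10a with no role or order. The build, annotation, counting program, counted region and use of strand are not given in the sources used here, so reads shared with near-identical or overlapping transcripts are uncertain. Members, lists and tests were chosen with earlier results of these data known. Symbols of the members come from the rule. The other polyamine genes and the cell type markers were listed by symbol, and no table used here pairs symbols with transcript identifiers, so they are not analysed here.

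Counts were fitted in R 4.3.3 with edgeR 4.0.16 (filterByExpr, TMM, glmQLFit, glmQLFTest) over all transcripts: 9653 in RPF, 9693 in mRNA, and 8632 in the 12-library fits of the ratio and of its change (interaction of assay and time, TMM within each assay). P-values were adjusted by Benjamini-Hochberg over each table, at 0.05; SE was taken as |log2 change| over root F. All 4 members are named; a change is printed where the libraries of the compared times do not overlap, and other changes as ranges. The pipeline was tested on simulated data with a fixed spread and with changes larger than any printed here from the main fits. That test does not cover changes of the printed size. Alternatives were other scalings and filters, DESeq2 1.42.0, a block for replicate number, and dropping single libraries.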

Additional observations from a re-analysis of the deposited data

How the results depend on the processing

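Members to which DESeq2 gave no adjusted p were counted as not called. Of 122 alternative fits, 121 gave the same number of called members, 0. The exception was edgeR without a filter on low counts, which called 1 member at 0 min: SRM, with a log2 RPF to mRNA ratio of 1.43 and an adjusted p of 0.0493; that fit called 1909 of 17204 transcripts, against 885 of 8632 with the filter. Over all settings the adjusted p of that ratio ran up to 0.510. The 23 printed member values kept their direction in each of the 140 recomputations on all libraries. They also kept it in the 104 that left out 1 library of the compared groups, where the lone library of an arm is assumed to vary like the other groups. The compared groups of all 23 values did not overlap, so dropping a library could hardly reverse a direction. The kept direction is therefore no separate evidence. SAT1 has no value with at least 10 counts in every library. The log2 change in the AMD1 ratio at 360 min against 0 min ran from 1.56 to 1.80 over other scalings, filters and DESeq2, and from 1.03 to 2.10 with a library left out. The lowest adjusted p it reached was 0.338, without mRNA 0 min replicate 1. With the replicate block its unadjusted edgeR p was 0.0227 and its adjusted p 0.767, and the block called 0 of 4 members in each comparison. Of all transcripts the block called 1044 of 8632 in the ratio at 0 min. Over time it called at most 7 of 9653 in RPF, and 0 in mRNA and in the ratio. Same-numbered RPF libraries deviated together between times (r of 0.336 to 0.351 over 4243 transcripts). In mRNA the 0 and 60 min numbers deviated in opposite directions (r = −0.476). A block with the 0 min mRNA numbers exchanged was added after seeing the data. In mRNA and in the ratio over time it also called 0 members, and 0 of all transcripts. Depth limits SAT1 most, with 2 counts in 1 library.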
